A study of Arabidopsis thaliana with 12 samples.

Results

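The 6 Arabidopsis arrays whose source label ends in 2, called series 2 here, were set against the 6 whose label ends in 1, called series 1. Each array of series 2 was paired with the series 1 array of its own genotype, which gave 6 pairs that use all 12 arrays of the study. The 6 genotypes were S14-150, S15-118, S58-2 and S82-2, which are mutant lines, the mutant aba3-1 and wild type (wt). The labels speak of 4 recessive suppressors of aba3-1 found by the leaf temperature of plants, and no label says of each line that it is one of them. In aba3-1 the molybdenum cofactor sulfurase gene ABA3 is mutated, and the plants make too little abscisic acid (ABA), the hormone that closes stomata in drought. All 12 arrays share 1 growth regime, aerial parts from untreated plants on compost at 21 °C in days of 8 h light, and the labels give neither the age nor how many plants were pooled. No label says what the series number stands for, a sowing, a harvest, an extraction or a hybridisation, so these cannot be told apart.

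A leaf transcriptome moves through the day. Light acts through the transcription factor HY5 and its close relative HYH, the circadian clock sets the hour of many transcripts, and starch and sugars are built up in the light and used in the dark. Cold and drought act on other sets of genes, among them the COR genes, whose proteins protect membranes and chloroplasts in frost. Members of all these sets were called between the series, but so were 48.0% of all tested probe sets. Whether any of these conditions differed between the series was not tested.

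The values are GCRMA signals, given here on the log2 scale, so that a difference of 1 means a signal 2 times as strong. Probe sets above 4 on 2 or more arrays were tested, 11561 of 22746. The mean paired difference, series 2 minus series 1, was tested with limma, with genotype as the block, and differences with an adjusted p under 0.05 were called. In all, 5549 of the 11561 probe sets were called (48.0%), 2515 higher in series 2 (21.8%) and 3034 lower (26.2%). At a difference of at least 1 log2 as well, 1089 were called (9.42%), 561 higher (4.85%) and 528 lower (4.57%). At 2 log2 or more there were 145 higher and 86 lower, and at 3 log2 or more 47 higher and 23 lower.

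The difference ran the same way in all 6 pairs for 4965 of 11561 probe sets (42.9%), and for 1070 of the 1089 called with at least 1 log2. The count of 1070 follows largely from the choice, since the 1089 were picked by the mean of the same 6 pairs. For 2330 probe sets (20.2%) no array of series 2 lay within the range of series 1, 1129 above it (9.77%) and 1201 below it (10.4%). The median difference was -0.04, with quartiles at -0.31 and 0.24, and the median SE of a difference was 0.11. In 530 probe sets the difference stayed within 0.25 log2 in every pair.

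Differences were found at all signal levels. Of probe sets with a mean signal between 6 and 8, 52.8% were called, and of those at 10 or more 35.3%, with 4.89% called and at least 1 log2 apart. The plot of signal against difference shows this spread.

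**Figure D1:**
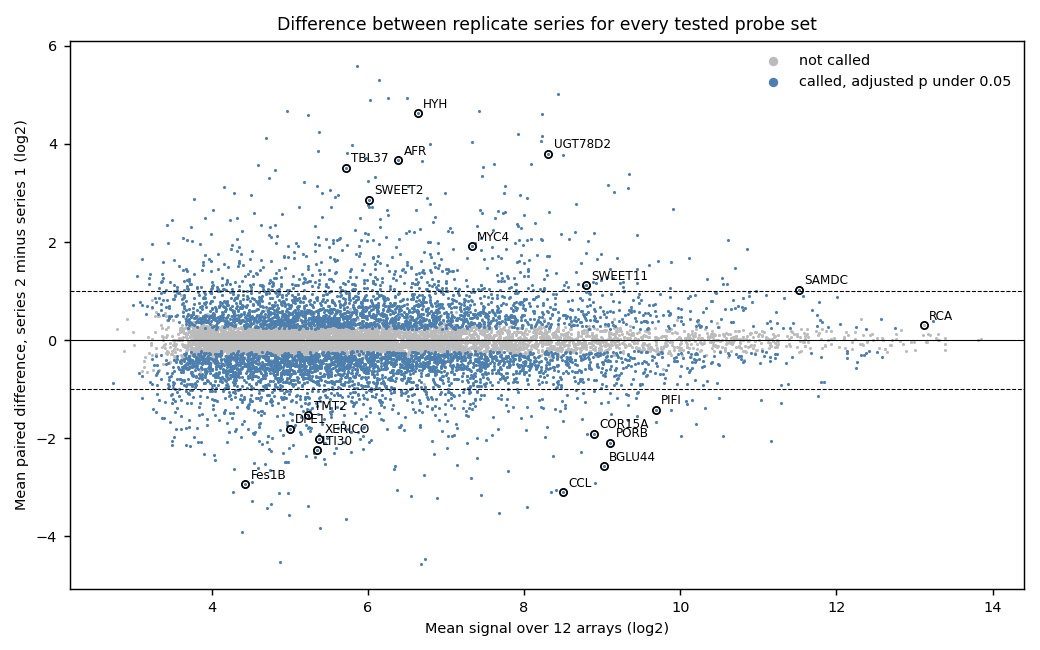
Mean paired difference of each of the 11561 tested probe sets, series 2 minus series 1 (log2, vertical), against its mean signal over 12 arrays (log2, horizontal). Blue points were called with limma and grey points were not, the dashed lines stand at 1 and -1, and circles mark genes described in the text, such as HYH at 4.63 above and CCL at -3.11 below.

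The median signal of an array was 3.58 to 3.64 in series 2 and 3.63 to 3.73 in series 1. For each of the 12 arrays the best correlate was in the same series. The difference between the 3′ and 5′ control probe sets of actin, a sign of RNA quality, was 4.74 to 5.11 in series 2 and 4.89 to 5.51 in series 1. It was lower in series 2 in 5 of 6 pairs, with a mean paired difference of -0.34. That of GAPDH was 1.48 to 1.78 in series 2 and 1.40 to 2.06 in series 1. The control signal of 25S ribosomal RNA was 7.19 to 9.78 in series 2 and 3.77 to 9.46 in series 1, where the S58-2 array was the lowest, with a mean paired difference of 1.16. Extracted RNA was 5.1 to 12.1 µg in series 2 and 8.4 to 15 µg in series 1. The part of RNA quality, ribosomal RNA and RNA amount in the differences was not tested. The S58-2 pair stood apart from the other 5, with 212 probe sets called between them. Of the 166 named probe sets 155 were called over all 6 pairs, and leaving the S58-2 pair out turned the direction of none of these. That follows largely from the choice, since they were called with that pair included. Rubisco activase (RCA), a marker of green leaf cells, was at 13.14 to 13.36 in series 2 and 12.46 to 13.19 in series 1. RCA, the root marker PYK10 and the guard cell marker AT1G22690 were not called, at 0.30, -0.15 and 0.12 (adjusted p = 0.0600, 0.593 and 0.391, limma). In bulk tissue, fewer cells of a type and less RNA per cell cannot be told apart.

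Several of the genes that stood furthest apart were near or below the floor of 4 in one series and well above it in the other. Where every array of a series was at or below 4, the difference is given as a bound, the mean of the other series minus 4, while the adjusted p is that of the measured values. Names were taken from the tables at hand, which pair 6073 of the tested probe sets (52.5%) with 1 gene. A gene with no symbol there is given by its locus. The naming rule took, for the highest and the lowest alike, only called probe sets at least 1 log2 apart. It also asked for the same direction in all 6 pairs and no overlap between the series, so these traits follow from the choice. The 12 probe sets highest in series 2 by this rule belong to 11 genes, since AT5G54130 has 2 of them. HYH, the HY5 homologue of light signalling, led those with a symbol. Its signal was 8.75, 8.97 and 9.25 in series 2 and 3.98, 4.31 and 4.78 in series 1 (lowest, median and highest array, as in all such triples below). The arrays of the series did not overlap, and the difference was 4.63 log2 (SE 0.13, adjusted p = 4.16e-09, limma over 6 pairs, as for all differences below), or 24.8 times on a linear scale.

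UGT78D2, which attaches glucose to flavonols and anthocyanins, was at 9.69, 10.24 and 10.72 in series 2 and 6.04, 6.35 and 6.92 in series 1. AFR, an F-box protein of far-red light signalling, was at 7.56, 8.35 and 8.77 in series 2 and 3.88, 4.48 and 5.15 in series 1, and TBL37, of a family that acetylates cell wall polysaccharides, at 6.85, 7.64 and 7.84 in series 2 and 3.62, 3.995 and 4.26 in series 1. As the naming rule required, no array of series 2 reached down to series 1 in these 3 genes. The differences were 3.80, 3.66 and 3.52 (SE 0.12, 0.13 and 0.11). Their adjusted p-values with limma lay between 6.33e-09 and 1.22e-08.

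The 7 other loci of this group carry no symbol. AT5G42760 was at 8.22, 8.88 and 9.23 in series 2 and 3.10, 3.53 and 3.72 in series 1, at least 4.80 higher. AT5G15950 was at 10.75, 10.93 and 11.13 in series 2 and 5.63, 5.98 and 6.17 in series 1, 32.3 times higher on a linear scale, and its 6 pairs lay between 4.82 and 5.39. The 2 probe sets of AT5G54130 were 4.95 and 4.67 higher. AT4G27657 was at 2.61 to 2.70 in all series 1 arrays, below the floor of 4, and at 6.11 to 7.49 in series 2, at least 2.76 higher. AT5G47610 and AT1G68440 were 3.82 and 3.71 higher (SE 0.12 and 0.11) and AT2G28200 at least 2.38 higher, and by the naming rule none overlapped.

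Among the 12 probe sets lowest in series 2 none has a symbol. AT1G70820 was at 4.12, 4.33 and 4.87 in series 2 and 8.49, 9.0 and 9.43 in series 1, and AT1G56300 at 2.46, 2.59 and 2.81 in series 2 and 6.64, 7.19 and 7.52 in series 1. AT1G70820 had a mean difference of -4.56 (SE 0.10) and AT1G56300 was at least 3.13 log2 lower, each at an adjusted p of 1.09e-09 with limma. On the 6 series 2 arrays AT1G56300 did not reach 3. AT3G62550 was at 3.69, 4.51 and 5.13 in series 2 and 8.43, 8.995 and 9.53 in series 1, a difference of -4.47.

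AT5G61590, listed with the synonym DEWAX, a factor that lowers wax synthesis, was at 2.78, 3.74 and 3.77 in series 2 and 6.86, 7.25 and 8.0 in series 1. It was lower in all 6 pairs, by at least 3.30 log2 in the mean (adjusted p = 3.28e-08). The 8 other loci were AT4G14270 (-3.66), AT4G30660 (-3.52), AT3G47160 (at least 2.42 lower), AT5G59130 (at least 2.44 lower), AT2G39920 (at least 2.16 lower), AT1G23390 (-3.23), AT1G13650 (-3.18) and AT1G68600 (-3.12). For all 12 the ranges of the series were apart, as the naming rule required, and the plot gives these genes by array.

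**Figure D2:**
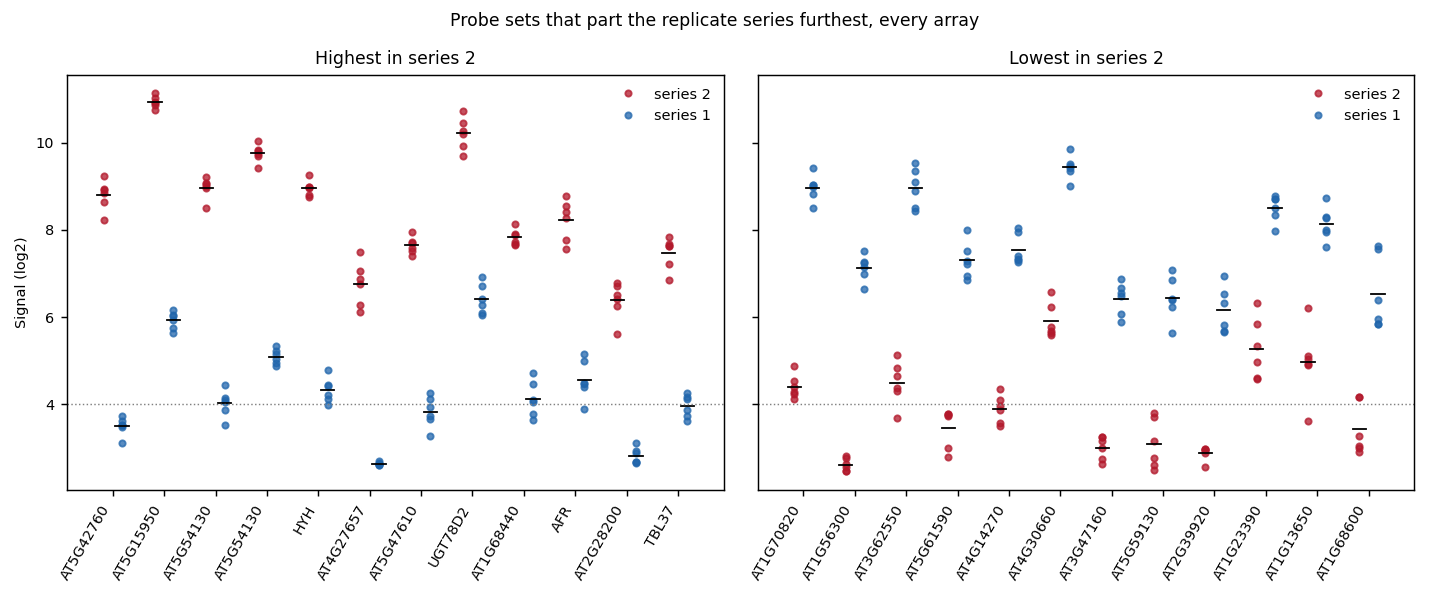
Signal (log2) on every array for the 12 probe sets highest (left) and the 12 lowest (right) in series 2, with series 2 in red to the left of series 1 in blue, each point 1 genotype and the bar the mean of 6. The dotted line is the floor of 4. By the naming rule no red point lies within the blue points of the same probe set, and several genes are below the floor in one series.

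Among light and clock genes, HYH and AFR, given above, were both higher. PORB, which carries out the light-dependent step of chlorophyll synthesis, was lower, at 7.79, 8.02 and 8.62 in series 2 and 9.85, 10.22 and 10.34 in series 1. Its range in series 2 ended below that of series 1, and the difference was -2.09 (SE 0.11, adjusted p = 2.64e-07). Of the clock list, the 2 tested members, GI and CCL, were both called lower, against 26.2% of all probe sets.

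CCL, whose transcript cycles over the day, was at 6.01, 7.01 and 8.05 in series 2 and 9.76, 10.01 and 10.45 in series 1. The series did not overlap, and the pairs lay between -3.95 and -2.40 around a mean of -3.11 (SE 0.16, adjusted p = 2.03e-07). GI, GIGANTEA, a clock component that peaks late in the day and acts on flowering time, was at 5.28, 5.48 and 5.86 in series 2 and 6.20, 6.40 and 6.97 in series 1, with no overlap and a difference of -0.94 (SE 0.11). The 5 tested nuclear photosynthesis genes were not called in either direction, where 48.0% of all probe sets were called. LHCB4.1, an antenna protein of photosystem II, was at 12.54, 12.62 and 12.81 in series 2 and 12.69, 12.73 and 12.81 in series 1, where the ranges overlapped (difference -0.10, SE 0.08, adjusted p = 0.347, limma). LHCB4.2, its paralogue, had a difference of -0.18 (adjusted p = 0.124) and was called lower in a fit with trend and robust moderation (adjusted p = 0.0353).

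All 5 tested members of the cold list were called, 4 lower and 1 higher, against 26.2% and 21.8% of all probe sets, with a median of -1.91 against -0.04 over all tested probe sets. COR15A, a chloroplast protein that protects membranes in frost, was at 6.40, 7.75 and 9.35 in series 2 and 8.52, 9.60 and 11.17 in series 1. The genotypes differ widely in this gene and the ranges overlapped, while the 6 pairs stayed close together, from -2.12 to -1.60. Its mean difference was -1.91 (SE 0.10, adjusted p = 1.66e-07).

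COR15B, the neighbouring gene and close relative of COR15A, was at 6.49, 6.89 and 8.45 in series 2 and 8.71, 9.16 and 10.05 in series 1, with no overlap, a difference of -1.97 (SE 0.13). Since the 2 genes are similar in sequence, probes may share signal between them, which was not tested. The dehydrin LTI30 was at 3.66, 4.17 and 4.88 in series 2 and 5.75, 6.43 and 7.22 in series 1, without overlap and with a difference of -2.25 (SE 0.22, adjusted p = 2.24e-05), with pairs from -3.49 to -1.26. COR47, another dehydrin, had a difference of -0.60 (SE 0.15, adjusted p = 0.00731), with overlapping ranges.

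STZ, a zinc finger repressor induced by cold, salt and ABA, went the other way, at 4.51, 5.89 and 6.25 in series 2 and 2.67, 4.81 and 5.98 in series 1. The ranges overlapped, and its pairs were uneven, from 0.25 in S15-118 to 2.70 in wt, around a mean of 1.30 (SE 0.27, adjusted p = 0.00305). Without pairing by genotype, 3 of the 5 members of the cold list were called, all lower, and STZ had an adjusted p of 0.0798. XERICO, a RING protein that raises ABA levels, was the 1 called of 2 tested members of the ABA list, against 26.2% of all probe sets called lower. It was at 3.74, 4.23 and 5.04 in series 2 and 6.07, 6.33 and 6.88 in series 1, without overlap, and with a difference of -2.01 (SE 0.13, adjusted p = 1.08e-06). The linker histone gene HIS1-3, which drought and ABA induce, was not called (-0.11, adjusted p = 0.393).

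Of 4 tested starch genes 3 were called, all lower in series 2, against 26.2% of all probe sets, with a list median of -0.96. DPE1, the plastid enzyme that rearranges short glucans in starch breakdown, was at 3.55, 4.16 and 4.44 in series 2 and 5.48, 5.94 and 6.23 in series 1, a difference of -1.81 (SE 0.16, adjusted p = 1.07e-05). APL3, a subunit of the enzyme that makes ADP-glucose for starch, was at 4.19, 4.71 and 5.18 in series 2 and 5.44, 6.02 and 6.39 in series 1, a difference of -1.28 (SE 0.11). SBE2.2, a starch branching enzyme, was at 5.59, 6.26 and 6.59 in series 2 and 6.60, 6.86 and 7.04 in series 1, a difference of -0.64 (SE 0.13, adjusted p = 0.00309). None of the 3 overlapped. QQS, an orphan gene that affects starch content, ranged over 4.50 to 9.40 in series 2 and 5.59 to 9.22 in series 1 and was not called (-0.11, SE 0.16, adjusted p = 0.619).

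All 5 tested SWEET genes, which encode sugar transporters, were called, 3 higher and 2 lower, against 21.8% and 26.2% of all probe sets. SWEET2, a glucose transporter of the vacuole membrane, was at 6.82, 7.47 and 8.15 in series 2 and 3.95, 4.62 and 5.11 in series 1. It did not overlap, its pairs lay between 2.57 and 3.04, and the mean was 2.86 (SE 0.09, adjusted p = 7.17e-09). SWEET11, which exports sucrose for the phloem, was at 9.20, 9.32 and 9.54 in series 2 and 8.08, 8.17 and 8.57 in series 1, and SWEET1, a glucose transporter of the cell membrane, at 6.83, 7.04 and 7.54 in series 2 and 5.77, 6.02 and 6.22 in series 1.

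SWEET11 and SWEET1 were both higher without overlap, by 1.12 and 1.08 (SE 0.09 and 0.10). SWEET13, another sucrose exporter, was at 3.94, 5.16 and 5.33 in series 2 and 5.74, 5.98 and 6.29 in series 1, lower without overlap, with a difference of -1.13 (SE 0.14, adjusted p = 9.46e-05). SWEET17, a fructose transporter of the vacuole, had a difference of -0.34 (SE 0.10, adjusted p = 0.0144), with overlapping ranges. TMT2, which loads sugars into the vacuole, fell by 1.53 log2 (SE 0.12), at 4.16 to 5.01 in series 2 and 5.45 to 6.51 in series 1.

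**Figure D3:**
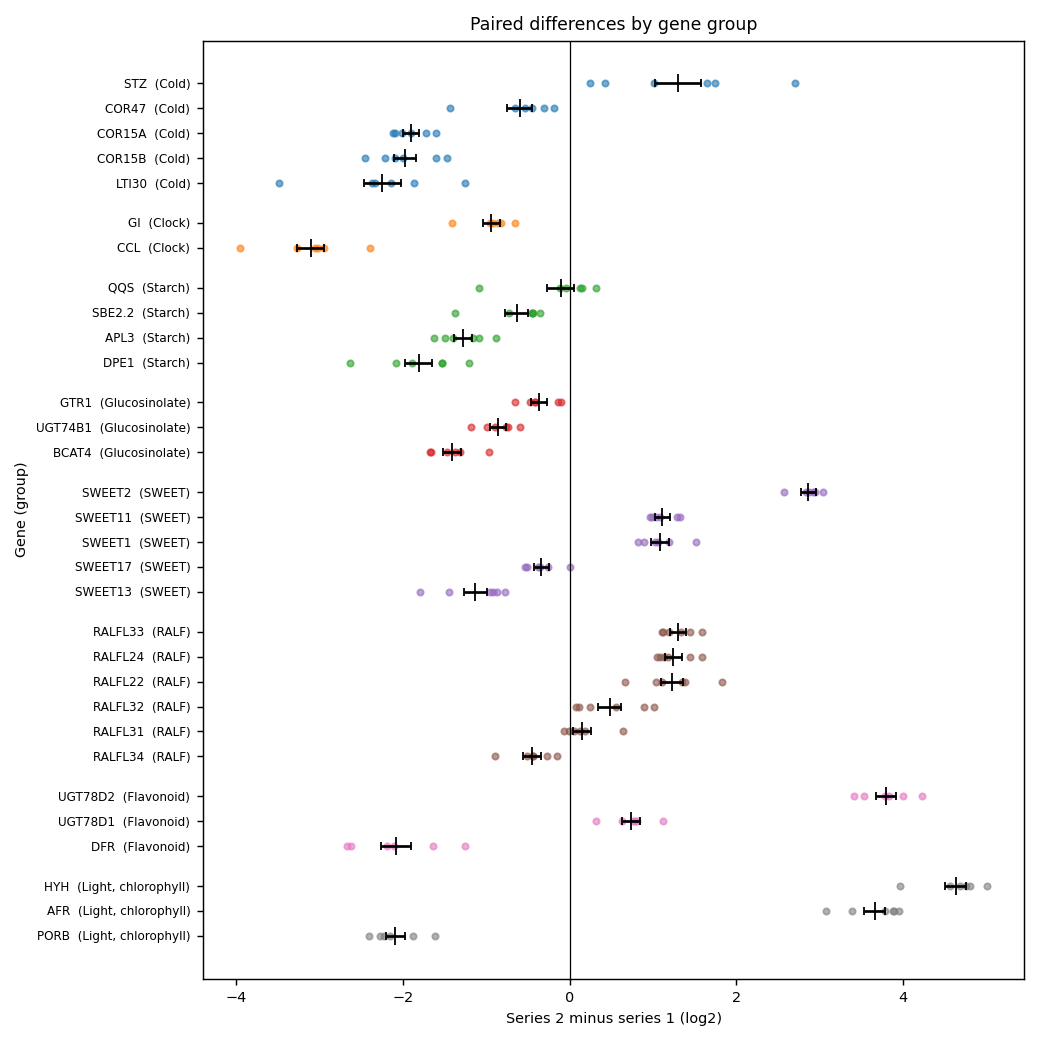
Paired differences, series 2 minus series 1 (log2), of genes in 8 groups: coloured points are the 6 genotype pairs, the black bar is the mean and the whiskers its SE from limma. The COR genes, LTI30, GI, CCL and 3 of 4 starch genes lie left of 0, while HYH, AFR, UGT78D2 and SWEET2 lie far right of it.

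Flavonoid genes split. UGT78D2 and UGT78D1, which attach sugars to flavonols, were higher, the second by 0.74 (SE 0.11, adjusted p = 0.000287), at 7.92, 8.17 and 8.22 in series 2 and 6.99, 7.39 and 7.88 in series 1. DFR, dihydroflavonol reductase, which leads into anthocyanins, was at 2.39, 2.73 and 3.54 in series 2 and 3.69, 5.16 and 5.65 in series 1. It was lower in all 6 pairs without overlap, by at least 0.86 log2 (adjusted p = 6.58e-06), but the ranges parted below the floor, between 3.54 and 3.69. UF3GT, an anthocyanin glycosyltransferase, was below the floor on all series 2 arrays, at 2.51 to 2.67, and at 2.69 to 5.56 in series 1 (adjusted p = 0.00164). AT4G14090, below the floor on all series 2 arrays as well, was not called (adjusted p = 0.0818), but was called lower when the S14-150 pair was left out. CHIL, a relative of chalcone isomerase that aids flavonoid synthesis, was 1.0 higher (SE 0.11).

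Of 20 tested UDP-glycosyltransferases, enzymes that attach sugars to hormones and other small molecules, 9 were called higher and 6 lower, against 21.8% and 26.2% of all probe sets. IAGLU, which conjugates the auxin indole-3-acetic acid, was at 6.51, 7.03 and 7.13 in series 2 and 4.58, 4.92 and 5.25 in series 1, without overlap and with a difference of 2.05 (SE 0.10, adjusted p = 1.16e-07). GT72B1, UGT71C4 and UGT74D1, the last another auxin glucosyltransferase, were 1.06, 1.02 and 1.0 higher. UGT88A1, at 8.49, 8.83 and 8.98 in series 2 and 9.52, 9.91 and 10.11 in series 1, fell by 1.12 log2 (SE 0.09), and UGT72E1, of lignin monomers, by 1.03 (SE 0.10). Outside the list, UGT84A3 and UGT80B1, which acts on sterols, had differences of -1.32 and -1.21.

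Glucosinolate genes, of the sulfur compounds that defend cabbage relatives, had 3 of 4 tested members called, all lower, against 26.2% of all probe sets, with a list median of -0.62. BCAT4, which starts the chain elongation of methionine, was at 7.34, 7.72 and 7.91 in series 2 and 8.88, 9.06 and 9.47 in series 1, without overlap and with a difference of -1.41 (SE 0.11, adjusted p = 3.09e-06). UGT74B1, a glucosyltransferase of the pathway, had a difference of -0.86 and the transporter GTR1 one of -0.37 (SE 0.10 and 0.10). APS3, an ATP sulfurylase that activates sulfate, fell by 0.89 log2 (SE 0.12), at 5.20 to 5.61 in series 2 and 5.86 to 6.75 in series 1, with no overlap. MYC4, a factor of jasmonate signalling that also drives glucosinolate genes, was higher, at 7.95, 8.35 and 8.52 in series 2 and 6.19, 6.27 and 6.76 in series 1, without overlap and with a difference of 1.92 (SE 0.09, adjusted p = 1.05e-07). The jasmonate marker PDF1.2 was not called (-0.16, adjusted p = 0.614), and neither were the 4 tested WRKY factors of defence and senescence. Of all probe sets 48.0% were called.

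Of 11 tested expansins and xyloglucan enzymes, which loosen and rebuild walls, 5 were called higher and 3 lower, where 21.8% and 26.2% of all probe sets were. EXGT-A3, an endoxyloglucan transferase, was at 8.17, 8.80 and 9.11 in series 2 and 6.70, 6.995 and 7.67 in series 1, without overlap and with a difference of 1.61 (SE 0.10, adjusted p = 7.68e-07). XTH19, of the same enzyme family, was at least 0.30 higher. EXPB1, EXPB3 and EXPA8 were the 3 lower members. EXPB1, a beta-expansin, was at 3.29, 3.81 and 5.60 in series 2 and 5.17, 5.88 and 7.21 in series 1, with overlap, a difference of -1.73 (SE 0.15, adjusted p = 9.35e-06), and EXPB3 and EXPA8 had differences of -0.84 and -0.64 (SE 0.20 and 0.15). Without pairing by genotype EXPB3 and EXPA8 were not called (adjusted p = 0.0612 and 0.0758).

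The RALF-like genes, which encode small secreted peptides that act on growth and the cell wall through receptor kinases, had 4 of 6 tested members called higher, 1 lower and 1 not called, against 21.8% of all probe sets called higher and 26.2% lower. RALFL33 was at 8.56, 8.65 and 8.90 in series 2 and 6.97, 7.38 and 7.74 in series 1, RALFL24 at 6.99, 7.25 and 7.49 in series 2 and 5.60, 5.96 and 6.41 in series 1 and RALFL22 at 6.34, 6.55 and 7.02 in series 2 and 4.70, 5.42 and 5.91 in series 1. In all 3 the series were apart, with differences of 1.30, 1.25 and 1.23 (SE 0.09, 0.10 and 0.14). RALFL34, whose peptide is known as a ligand of the receptor kinase THE1, fell by 0.45 log2 (SE 0.11, adjusted p = 0.00545), with overlap. THE1 itself, which senses the state of the wall, was at 5.02, 5.55 and 5.95 in series 2 and 3.74, 4.36 and 4.54 in series 1, higher by 1.28 without overlap (SE 0.10). This family and the others grouped by the stem of their symbols were picked after their values were seen.

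Of 13 tested TBL genes 4 were called higher and 1 lower, against 21.8% and 26.2% of all probe sets. TBL45 stood next to TBL37 at 6.89, 7.89 and 8.05 in series 2 and 5.34, 5.76 and 6.50 in series 1, a difference of 1.76 (SE 0.13). Of 7 tested BGLU genes, beta-glucosidases that release compounds from sugar conjugates, 1 was called higher and 4 lower, against 21.8% and 26.2% of all probe sets. BGLU44 was at 7.09, 7.79 and 8.10 in series 2 and 10.04, 10.22 and 10.85 in series 1, with pairs from -2.95 to -2.31 and a mean of -2.58 (SE 0.10, adjusted p = 2.90e-08). Its arrays did not overlap. Of 10 tested tubulin, actin and tubulin folding genes 2 were called higher and 5 lower, against 21.8% and 26.2% of all probe sets, none by 1 log2, from ACT11 (0.97) to TUB1 (-0.80). WLIM2a, which bundles actin filaments, was lower, at 4.53, 4.85 and 5.14 in series 2 and 6.41, 6.71 and 7.09 in series 1, a difference of -1.88 (SE 0.10).

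Hormone response and transcription factor genes were called both ways. RR16, a type-A response regulator that cytokinin induces, was at 5.60, 6.50 and 7.27 in series 2 and 3.98, 4.50 and 5.35 in series 1, without overlap and with a difference of 1.90 (SE 0.13, adjusted p = 1.08e-06). It was the only called member of the 2 tested on the cytokinin list, against 21.8% of all probe sets called higher. ARR15, the other member, was not called (0.51, SE 0.21, adjusted p = 0.062, limma) and was lower in the S58-2 pair (-0.55). GIS, a zinc finger factor of trichome formation, was 2.04 higher and the factor bHLH34 2.24 higher (SE 0.13 and 0.12). ARL, a promoter of cell expansion, was 1.12 higher, with pairs from 0.22 to 2.23. SMZ, a repressor of flowering, was at 3.40, 4.56 and 4.73 in series 2 and 2.78, 3.16 and 3.35 in series 1, at least 0.33 higher. Series 2 and series 1 did not overlap in it, but they parted below the floor, between 3.35 and 3.40. HAT2, a homeodomain factor of auxin and shade responses, was lower by at least 0.89 log2, at 3.26 to 3.68 in series 2, below the floor, and 4.02 to 5.34 in series 1.

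Further genes with metabolic roles, picked after their values were seen and given without a list, were higher. AAH, allantoate amidohydrolase, which frees nitrogen from purine breakdown, was at 6.47, 7.16 and 7.47 in series 2 and 4.15, 4.96 and 5.38 in series 1, without overlap and with a difference of 2.17 (SE 0.13, adjusted p = 4.63e-07). GME, of vitamin C synthesis, was at 9.76, 9.85 and 9.96 in series 2 and 8.44, 8.75 and 8.79 in series 1, and SAMDC, S-adenosylmethionine decarboxylase of polyamine synthesis, at 11.91, 12.03 and 12.13 in series 2 and 10.81, 11.01 and 11.26 in series 1. Both were higher without overlap, by 1.20 and 1.03 (SE 0.08 and 0.10). Cytosolic isocitrate dehydrogenase cICDH was 1.14 higher, the manganese transporter MTP11 1.32 and the cytochrome c gene CYTC-2 1.37 (SE 0.10, 0.10 and 0.09). PYE, a bHLH factor of iron deficiency, was at least 0.81 higher (adjusted p = 0.000514), at 4.08 to 5.64 in series 2 and 2.76 to 3.72 in series 1, below the floor. The glutathione transferases split, with 2 of 5 tested called higher and 2 lower, beside 21.8% and 26.2% of all probe sets, GSTU16 at 0.84 and GSTU20 at -1.09.

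Nuclear genes of chloroplast proteins were called both ways, and those given here were picked after their values were seen. LPA19 and LPA2, which assist the assembly of photosystem II, were 0.43 and 0.29 higher (SE 0.09 and 0.08, adjusted p = 0.00210 and 0.0180). Besides PORB, DPE1, APL3 and SBE2.2, the lower ones held the chaperonin subunit Cpn60beta2, at 6.75, 7.51 and 7.84 in series 2 and 8.76, 9.22 and 9.45 in series 1, without overlap and with a difference of -1.78 (SE 0.18, adjusted p = 2.93e-05). PIFI, named for a chlorophyll fluorescence trait of electron flow in the dark, was at 8.74, 8.98 and 9.22 in series 2 and 10.22, 10.38 and 10.64 in series 1, a difference of -1.42 (SE 0.10). It was lower in all 6 pairs. TAAC, the thylakoid ATP carrier, MRL7-L and CAF1, a chloroplast intron splicing factor, had differences of -1.24, -1.33 and -1.21 (SE 0.11, 0.19 and 0.19). NdhS and NdhN, nuclear subunits of the chloroplast NDH complex of cyclic electron flow, had differences of -0.72 and -0.35 (SE 0.09 and 0.10), while NdhL was not called (0.24, adjusted p = 0.0571). Without pairing by genotype NdhN was not called either (adjusted p = 0.155). Elsewhere in the cell, Fes1B, of a family that aids the chaperone Hsp70, was below the floor on every series 2 array, at 2.49 to 3.49, against 5.23 to 6.58 in series 1, lower by at least 1.90 log2 (adjusted p = 2.33e-08).

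**Figure D4:**
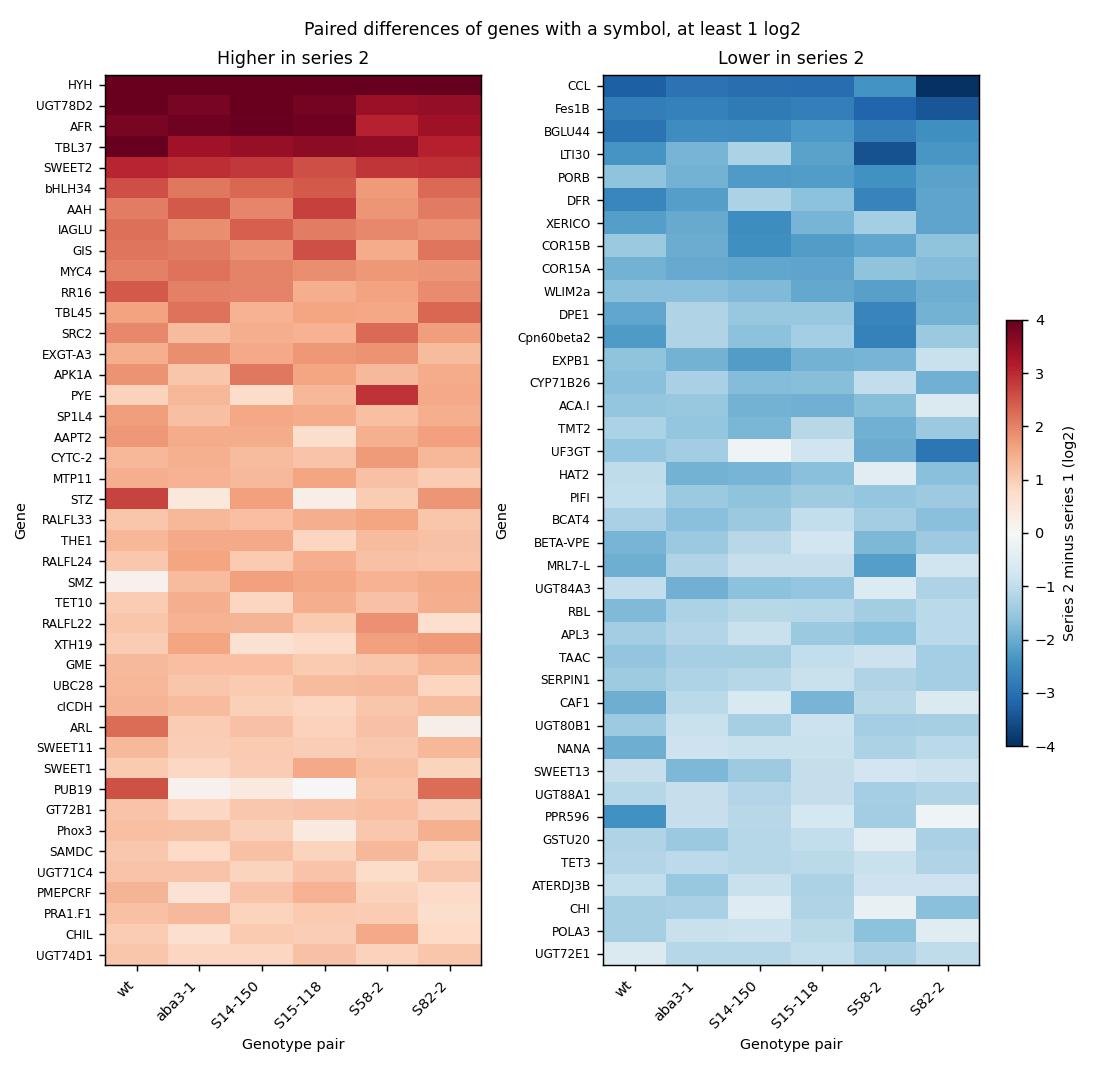
Paired differences, series 2 minus series 1 (log2), of the 43 higher (left) and 39 lower (right) genes that have a symbol, were called and differ by at least 1 log2, in the 6 genotype pairs. Red is higher and blue lower in series 2, with colours capped at 4 and -4. HYH is above 3.9 in every pair, while STZ, PUB19 and PYE are uneven between pairs.

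Neighbouring genes were compared by their order on the chromosomes. Of 1477 neighbouring pairs of tested genes, 17 were both called with at least 1 log2, 11 in the same and 6 in opposite directions. Of all probe sets 9.42% were called at that size, 4.85% higher and 4.57% lower, so some such pairs arise between unlinked genes. Whether neighbours moved together more often than other genes was not tested. COR15B and COR15A were among the first, as were AT4G30650 (-2.67) and AT4G30660 (-3.52), and AT1G70810 (-1.22) and AT1G70820 (-4.56). Opposite neighbours included PORB (-2.09) and AT4G27450 (1.80), and DPE1 (-1.81) and AT5G64850 (1.80).

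The 6 genotype pairs were then set against each other. Each pair's differences were tested against the mean of the other 5, with limma, where the single pair is assumed to vary like the others. No probe set was called for wt, aba3-1, S14-150, S15-118 or S82-2 (0% of 11561 each), with 634, 179, 205, 490 and 373 probe sets at an unadjusted p under 0.05. For S58-2, 212 were called (1.83%), 127 higher in its pair than in the others (1.10%) and 85 lower (0.735%), with 2664 at an unadjusted p under 0.05. Across probe sets, which are not independent and share normalised arrays, the differences of a pair correlated with the mean of the other 5 at 0.878 to 0.913 for 5 genotypes and at 0.764 for S58-2. The wt and S58-2 pairs had the most probe sets with a difference of at least 1 log2, 1732 and 1805, and the other 4 pairs 1126 to 1279.

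The S58-2 arrays stood apart in other measures too. The series 2 array came from the least extracted RNA, 5.1 µg, and the series 1 array had a 25S ribosomal RNA control signal of 3.77, where the other 11 arrays lay between 7.19 and 9.78. Their part in the result was not tested. Without the S58-2 pair 5872 probe sets were called between the series (50.8%), 2693 higher (23.3%) and 3179 lower (27.5%), and 1096 with at least 1 log2. Among the 212, picked after their values were seen, the stress gene OSM34, an osmotin-like protein, was at 5.55 in S58-2 series 2 and 2.49, below the floor, in S58-2 series 1, where the mean difference of the other pairs was 0.17 (adjusted p = 0.00946), and CCOAMT, a caffeoyl-CoA methyltransferase, at 6.37 in S58-2 series 2 and 3.43, also below the floor, in S58-2 series 1, with a mean difference of 0.50 in the others (adjusted p = 0.0322).

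Genes of the chloroplast genome were lower in series 2 in the S58-2 pair at the median, and higher in each of the 5 other pairs. Over all 6 pairs 5 of 65 tested plastid genes were called higher and 0 lower (60 not called), against 21.8% and 26.2% of all probe sets, with a median of 0.13. The 5 were atpF (0.59), rps18 (0.26), rpl33 (0.26), psbM (0.25) and psbL (0.23). Without the S58-2 pair 23 of the 65 were called higher, against 23.3% of all probe sets in that fit. The count was 0 without the wt pair, 1 without aba3-1 or without S14-150, 2 without S82-2 and 3 without S15-118. Each of these 5 other fits called between 2159 and 2299 of all 11561 probe sets higher. The calls of rps18 and rpl33 were lost without any 1 of the 5 pairs other than S58-2, and that of atpF without wt or without S14-150. Without wt or without aba3-1 those of psbM and psbL were lost as well. Without S14-150 or without S82-2 at least 1 of these 2 calls was lost. Pair by pair, the plastid genes had a median of 0.36 in wt, 0.19 in aba3-1, 0.14 in S14-150, 0.17 in S15-118 and 0.38 in S82-2, but of -0.51 in S58-2. In wt 64 of 65 were higher and 0 lower, against 47.9% of all probe sets that were higher in the wt pair, and in S58-2 16 were higher and 48 lower, against 53.3% of all probe sets that were lower in the S58-2 pair. In all 5 other pairs 25 of the 65 were higher, against 24.5% of all probe sets.

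By level, the median plastid gene of S58-2 was at 9.45 on its series 2 array and 10.06 on its series 1 array. On the other arrays it was at 9.59 to 10.73 in series 2 and 9.43 to 10.29 in series 1. Against the mean of the other 5 pairs 10 of the 65 were called lower in S58-2 and 0 higher, beside 0.735% of all probe sets called lower. ndhG, of the NDH complex, was at 5.04 in S58-2 series 2 and 7.24 in S58-2 series 1, a pair difference of -2.20 against a mean of 0.69 in the others (adjusted p = 0.0118). psbD and psbB, of the photosystem II core, had pair differences of -2.20 and -2.07 in S58-2, against 0.55 and 0.40 in the others (adjusted p = 0.0111 and 0.00531). The remaining 7 were ndhE, ndhH, ndhJ and ndhK of the NDH complex, psbK of photosystem II, atpI of the ATP synthase and ycf4, an assembly factor of photosystem I.

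**Figure D5:**
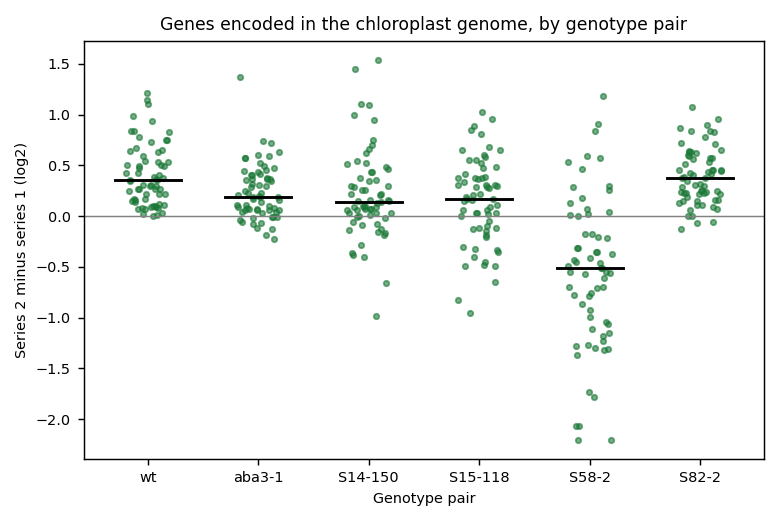
Paired difference, series 2 minus series 1 (log2), of the 65 tested genes of the chloroplast genome in each of the 6 genotype pairs, with each point 1 gene and the bar the median. The S58-2 points lie mostly below 0, with a median of -0.51, and those of the other pairs mostly above, with medians of 0.14 to 0.38.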

How the data were processed

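Values of 12 arrays were analysed as deposited: log2 signals per probe set, for which the submitters' processing notes name GCRMA without a version. The table gives no log base; 2 was taken, since values run from 1.82 to 13.93. The 64 control probe sets were left out. Paired differences (series 2 minus series 1) were tested with limma 3.58.1 (lmFit, eBayes) in R 4.3.3 with genotype as a block, 5 residual degrees of freedom and Benjamini-Hochberg adjustment over 11561 probe sets. The replicate number is the contrast itself, and arrays are paired by genotype, since each pair shares 1 genotype. No label says that the series are separate plants, so the p-values cover the spread among these arrays alone, and that may be technical. Precision is limited by the number of arrays.

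Named genes were up to 12 per direction by size (called, at least 1 log2, same way in all 6 pairs, no overlap, 1 gene), up to 3 per direction from each of 58 gene lists (40 had a tested member), and all genes with a symbol called with at least 1 log2; the last were added after values were seen. Members, lists and tests were chosen with earlier results of these data known. The chloroplast list was matched by chromosome after the files were read. Names came from the platform annotation and RefSeq (TAIR10.1); 503 probe sets with several genes and 8730 with none were left unnamed. The planned promoter motif search was not run, and no sequences were used here. The fit was tested on simulated data. Alternatives were the filter, pairing, quantile normalization, median centring, a trended robust fit and leaving out each pair.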

Additional observations from a re-analysis of the deposited data

Results flagged for a closer look

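The S58-2 pair differed from the mean of the other 5 pairs in 212 probe sets by the limma test of that difference. Among the named genes these were PYE, with 1.72 more in the S58-2 pair than in the others, and PRA1.B4, of a family of vesicle traffic proteins, with 1.17 more.

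In 12 of 166 named probe sets 1 paired difference lay far from the other 5, by Dixon's criterion for 6 values. Chance gives about 1 in 20 such groups. In S58-2 these were PYE (2.88, where its series 1 array was below the floor of 4), PRA1.B4 (0.49, where the other 5 pairs were below 0), AT2G28200 (2.92, also against a series 1 array below the floor) and SBE2.2 (-1.38). In wt they were LHCB4.1 (0.12), SMZ (0.16, with both wt arrays below the floor) and PIFI (-1.0). In S82-2 they were CYP71B35 (0.10), UBP21 (0.42) and ACA.l (-0.58), and in S15-118 AT5G15950 (5.39) and AAPT2 (0.71). For UBP21 and ACA.l every array of 1 series was at or below the floor.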

How the results depend on the processing

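The count of 5549 lay between 4695 (without the aba3-1 pair) and 5872 (without the S58-2 pair) when a pair was left out, and that of 1089 between 1033 and 1132. Without pairing the arrays by genotype, that is with no replicate block, 4318 were called and 1052 with at least 1 log2. Quantile normalization gave 5572 and 1086. The filter changed the single pairs: with no filter S58-2 had 330 calls, S15-118 5, wt 1, S82-2 1 and the other pairs 0. With the S58-2 arrays left out, an alternative chosen after seeing the data, S15-118 had 1. PUB19 was not called without pairing (adjusted p = 0.0951), without the filter (0.128), without the wt pair (0.0571) or without the S82-2 pair (0.0636). RCA was called higher with trend and robust moderation (0.0254) and without the S15-118 pair (0.0456). LHCB4.2 was called lower with trend and robust moderation (0.0353). Reversal was scored only for the 155 of the 166 named probe sets that were called. None of these 155 reversed in an alternative in which it was tested, which follows largely from their being called on the same arrays. Of them 132 were called under every alternative in which they were tested. The 12 arrays, with 1 per genotype and series, limit small differences most: the smallest called was 0.22.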
